A study of Mus musculus with 6 samples.

Results

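Genotypes that disturb the m6A pathway at different points were pooled and set against every control library of the same tissue. The altered arm held 2 libraries, Prrc2a f/f; Olig2-Cre and Fto Tg. The control arm held 3 libraries, 1 from each experiment of the series, so that 5 of its 6 libraries entered the comparison. All were made from hippocampus of C57BL/6J mice at 4 weeks of age. Controls f/f 1 and f/f 2 carried the floxed Prrc2a allele on both chromosomes (Prrc2a flox/flox) and no Cre, f/f 1 from the Nestin-Cre experiment and f/f 2 from the Olig2-Cre experiment, and the WT control came from the Fto experiment. Olig2-Cre mice were Prrc2a flox/flox as well, with Cre driven by the Olig2 promoter, which acts in oligodendroglial cells. According to the study, this driver sits in the Olig2 locus and leaves these mice with less than the full dose of Olig2 itself. Fto Tg and WT mice carried no floxed Prrc2a allele by their labels, and Fto Tg mice a lentiviral Fto coding sequence behind the ubiquitin C promoter, which is active in most cells. Each genotype had 1 library per experiment, it was not stated whether several mice were pooled in it, and nothing said that the libraries were independent preparations. The spread used below is therefore the spread between libraries.

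N6-methyladenosine (m6A) is a methyl mark on adenosines of mRNA. Writers of the Mettl3 complex place it, erasers such as Fto remove it, and readers such as the Ythdf proteins and Prrc2a bind marked RNA and affect its stability or translation. Oligodendrocytes form myelin around axons. They arise from progenitors in a programme that depends on the transcription factor Olig2, whose mRNA was studied as a target of Prrc2a. The pooled comparison asked which genes and gene classes lay on the same side of all controls in both altered libraries.

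Total counts were between 18616540 (Olig2-Cre) and 35482589 (f/f 1), and 3 counts corresponded to 0.0845 to 0.161 CPM, the count scaled to a common library size. Mitochondrial genes took 7.97% to 8.86% of the counts. The hippocampal markers Prox1, C1ql2, Wfs1, Fibcd1 and Neurod6 were between 31.0 and 196 CPM in every library, whereas the striatal and thalamic markers Drd1, Drd2, Adora2a and Tcf7l2 were between 1.04 and 12.8 CPM. Along the first principal component, which held 37.6% of the variance, f/f 1 stood apart from the other 4 libraries. Choroid plexus tissue differed between the altered libraries. Its 14 marker genes summed to 4761 CPM in Olig2-Cre and 1106 CPM in Fto Tg, against 2490 to 3996 CPM in the controls (scaled by library totals), and none of the 14 was at 0 in all 5 libraries. Its part in the results below was not tested.

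Prrc2a (chr17:35149076-35164897, GRCm38) was barely lower in the altered arm. It reached 434, 388 and 351 CPM in f/f 1, f/f 2 and WT, 347 CPM in Olig2-Cre and 335 CPM in Fto Tg. The Wilson 95% interval in Olig2-Cre, 338 to 355 CPM, overlapped that in WT, 344 to 359 CPM. It lay below those of both floxed controls, 382 to 397 CPM in f/f 2 of its own experiment and 427 to 441 CPM in f/f 1. In whole hippocampus, fewer cells of a type and less RNA per cell cannot be told apart, and the oligodendroglial cells in which Olig2-Cre acts are a minority. What this means for the level of Prrc2a was not tested. Fto (chr8:91313525-91668439) was at 152, 147 and 158 CPM in the controls, 164 CPM in Olig2-Cre and 355 CPM in Fto Tg, where reads of the transgene count as Fto. Fto was thus clearly separated from the controls in the library that carries the transgene, with a Wilson 95% interval of 348 to 360 CPM. These intervals cover counting error within a library only, and no spread between mice or preparations. PCR copies are not independent molecules and would make the intervals too narrow even for counting error.

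With edgeR's quasi-likelihood test on 16963 genes, no gene passed a false discovery rate (FDR) of 0.05 in either direction, a share of 0%. The smallest adjusted p was 0.102, and 2782 genes had an unadjusted p below 0.05, of which 1290 were higher and 1492 lower in the altered arm. DESeq2, run on the same counts, called 198 genes higher (1.6% of the 12359 genes to which it gave an adjusted p) and 411 lower (3.33%). A fit in edgeR with the experiment as a block, which compares each altered library with the control of its own experiment, called 812 genes higher (4.79%) and 1015 lower (5.98%). That fit has 1 residual degree of freedom against 3 without the block, and f/f 1 adds nothing to its contrast. Of the 609 DESeq2 calls, 594 were called in the same direction with the block, and all 609 were beyond the control range.

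A gene was counted as beyond the control range when both altered libraries were above, or both below, all 3 controls in log2 CPM. This held for 3033 genes on the higher side (17.9% of those tested) and 3026 on the lower side (17.8%). These shares are the background against which every count of list members is read. Values called higher or lower below describe the libraries, and an individual gene is said to pass a test only where the test is named.

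The clearest separation from the controls was on the lower side, where most of the 11 genes named here code for proteins of neuronal membranes and synapses or for nuclear regulators. Lmbrd2 (chr15:9140550-9202483), which encodes a membrane protein linked to receptor signalling, was at 36.6, 40.1 and 42.0 CPM in the controls and at 17.9 and 18.9 CPM in Olig2-Cre and Fto Tg. Its log2 fold change was -1.10 ± 0.10 (SE), with an adjusted p of 0.102 in edgeR. Gabrb2 (chr11:42419757-42629028), a β subunit of the GABA-A receptor, was at 119, 85.8 and 97.2 CPM in the controls and at 45.9 and 43.7 CPM in the altered libraries, a log2 fold change of -1.17 ± 0.14. For both genes the altered libraries were close to each other and far below every control.

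Cacna1e (chr1:154390731-154884501), the pore subunit of R-type calcium channels, had control values of 311, 280 and 294 CPM and altered values of 164 and 184 CPM. Pclo, a scaffold of the presynaptic active zone, was at 229, 232 and 234 CPM in the controls and at 156 and 143 CPM in Olig2-Cre and Fto Tg. The controls of Pclo were nearly equal, and its log2 fold change of -0.63 ± 0.08 was still not called (adjusted p = 0.138, edgeR). Unc13c, a vesicle-priming factor, went from 21.9 to 26.5 CPM in the controls to 13.6 and 12.9 CPM, and Ncam2, an adhesion molecule, from 36.6 to 45.2 CPM to 21.4 and 20.2 CPM. The remaining genes of this group chosen by p were Mdm4, an inhibitor of p53, the Kelch-family member Klhl11, the Mediator subunit Med12l, the stress-induced sestrin Sesn3 and the zinc-finger gene Zfp445. Their log2 fold changes were between -1.08 (Sesn3) and -0.71 (Mdm4). The genes were chosen for lying below all controls, in order of p on the same counts, and their calls by DESeq2 and the block fit are therefore no independent support.

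**Figure D1:**
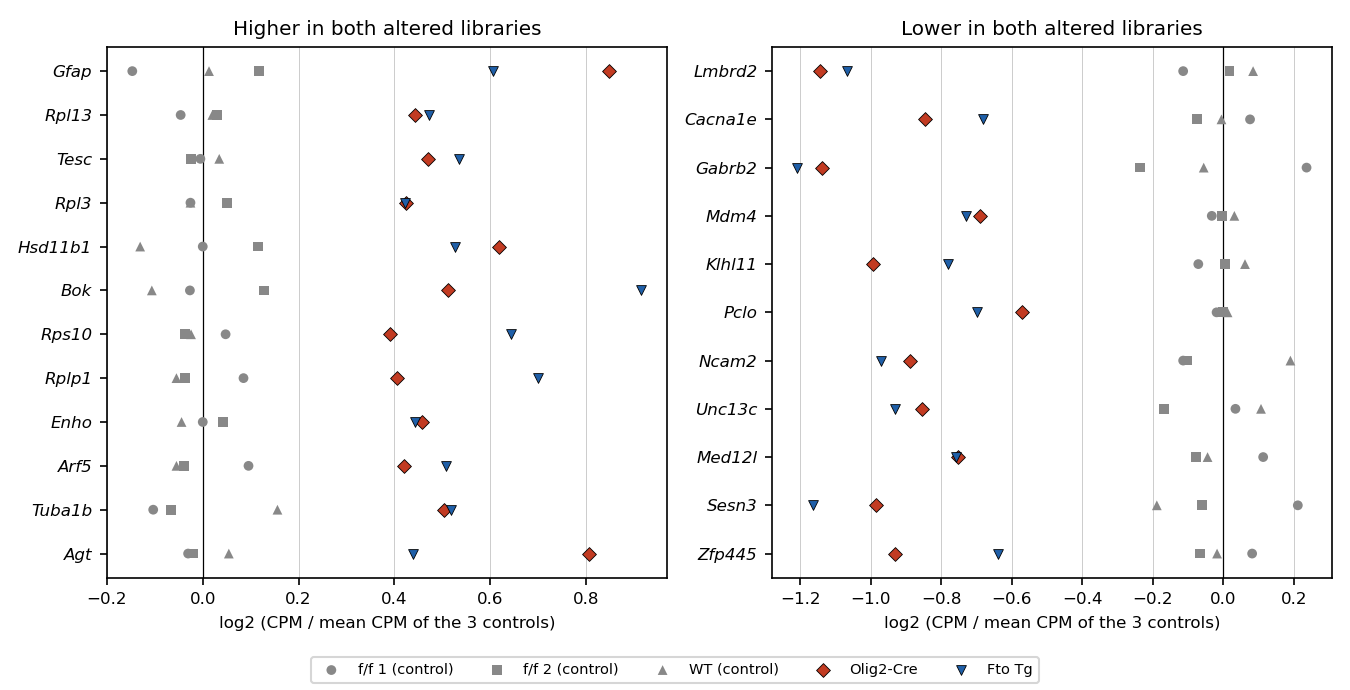
Level of the 12 named genes on the higher side (left) and the 11 on the lower side (right) in each library, as log2 of CPM over the mean CPM of the 3 controls. Grey circles, squares and triangles are f/f 1, f/f 2 and WT, red diamonds Olig2-Cre and blue triangles Fto Tg, 1 point per library. In every gene shown both altered libraries lie outside the span of the 3 controls, and Gabrb2 and Lmbrd2 have the largest log2 fold changes of those on the lower side (-1.17 and -1.10).

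Several lists of synaptic and channel genes had more members below than above the controls, and their genes are longer than most, which moved with the comparison as given further on. Among 50 voltage-gated ion channel genes, 23 were below all controls in both altered libraries and 3 above (46.0% and 6.00%). Kcnq3, a subunit of the channels that carry the M-current, was at 28.5, 23.6 and 20.7 CPM in the controls and at 14.0 and 14.6 CPM in the altered libraries, and the L-type calcium channel gene Cacna1c was at 54.2 to 68.8 CPM against 37.6 and 43.3 CPM. The median log2 fold change of the class was -0.16, beside 0.00 over all genes tested. Of 45 genes of synaptic vesicles and release, 20 were below and 7 above the controls, with Rims1 and Rims2, organizers of the active zone, among the lower ones (-0.50 ± 0.10 and -0.52 ± 0.10). Of 26 postsynaptic scaffold genes, 14 were below and 2 above, although the median deviation of the list in Olig2-Cre (-0.07) was not below that of WT (-0.13). Dlg2, which encodes PSD-93, was at 298, 238 and 250 CPM in the controls and at 158 and 162 CPM in Olig2-Cre and Fto Tg. Shank2, another scaffold of excitatory synapses, was at 219, 201 and 181 CPM against 153 and 151 CPM. Glutamate receptor genes had 10 of 24 members below and 2 above, GABA receptor genes 4 of 14 below and 2 above, and non-clustered protocadherins, which mediate adhesion between neurons, 4 of 11 below and 1 above. Grik3, a subunit of kainate receptors, was at 80.9, 54.5 and 60.4 CPM in the controls and at 45.4 and 42.4 CPM in the altered libraries, and Pcdh9 at 89.9, 76.3 and 82.9 CPM against 48.8 and 53.1 CPM. The controls of Grik3 were spread widely, whereas those of Pcdh9 lay close together. No member of these classes was called by the quasi-likelihood test without a block. The block fit called 14 channel, 8 vesicle, 10 scaffold and 6 glutamate receptor genes lower, and 1, 2, 0 and 0 higher. After offsets for gene length and GC content, the numbers below and above were 6 and 6 for glutamate receptors, 3 and 3 for GABA receptors, 8 and 4 for scaffolds, 10 and 7 for vesicle genes and 13 and 8 for channels. The medians of the glutamate receptors, GABA receptors and scaffolds were then 0.03, 0.03 and -0.01, against -0.14, -0.08 and -0.16 before. Without Fto Tg the medians of glutamate receptors and scaffolds were -0.05 and -0.08.

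Chromatin regulators stood out most among the classes on the lower side. Of 40 genes, 27 were below all controls in both altered libraries (67.5%) and 0 above, and the block fit called 18 lower and 0 higher. Ash1l, a histone H3 methyltransferase, was at 160, 166 and 160 CPM in the controls and at 127 and 120 CPM in Olig2-Cre and Fto Tg. Setd2, which trimethylates H3K36, was at 76.1, 79.8 and 79.2 CPM against 64.1 and 60.0 CPM, and Tet2, an enzyme that oxidizes 5-methylcytosine, at 42.8, 51.1 and 49.6 CPM against 35.2 and 36.3 CPM. The median of the class was -0.28. Its members have a median exon length of 13878 bases, against 4127 bases over all genes tested, and gene length moved with the comparison, as described further on.

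On the higher side, genes for the protein synthesis and degradation machinery were often above the controls. Of 65 cytosolic ribosomal protein genes, 34 were above all controls in both altered libraries (52.3%, against 17.9% of all genes) and 0 below, and the block fit called 58 higher and 0 lower. Rpl13 was at 277, 292 and 290 CPM in the controls and at 389 and 397 CPM in Olig2-Cre and Fto Tg, and Rpl3 at 390, 411 and 390 CPM against 533 and 532 CPM. In both genes the controls were close together and the altered libraries well above them (log2 fold changes 0.46 ± 0.07 and 0.42 ± 0.07, adjusted p = 0.144 and 0.151 in edgeR). Rps10 was at 116 to 123 CPM in the controls, 156 CPM in Olig2-Cre and 186 CPM in Fto Tg, and Rplp1, part of the ribosomal stalk, at 412 to 454 CPM against 567 and 695 CPM. The median deviation of the class from the control mean was 0.24 in Olig2-Cre and 0.39 in Fto Tg. It was 0.16 in f/f 1, and -0.06 and -0.05 in f/f 2 and WT, so that the higher level of f/f 1 kept part of the class within the control range. Ribosomal protein genes have many near-identical processed pseudogenes, and reads that fit several of them were not counted, which makes single members uncertain.

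Many ribosomal protein mRNAs begin with a C followed by a run of pyrimidines, the tract that couples their translation to growth signals. Of the 4 ribosomal protein genes named above, Rps10 and Rpl13 were in the RefSeq table of start regions used here (GRCm38). The stretch from 40 bases before to 20 bases after the annotated start is shown for both, 5′ to 3′ on the strand of the gene. Rps10 has such a tract exactly at its annotated start, and Rpl13 has none exactly there. Capitals mark a C at the start and the C or T bases that directly follow it, where there are at least 4.
Rps10 (chr17:27635225-27635284, minus strand): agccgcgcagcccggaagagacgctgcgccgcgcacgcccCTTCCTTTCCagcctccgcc
Rpl13 (chr8:123102310-123102369, plus strand): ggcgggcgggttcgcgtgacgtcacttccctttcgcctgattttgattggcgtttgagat
Such a tract lay exactly at an annotated start of 14 of the 49 ribosomal protein genes in the table (28.6%), of 3.03% of 12345 tested genes and of 3.01% of all 27025 genes in it. Only the strand of the gene was searched. Annotated starts can be off by some bases, so that a missing match exactly at the start says little. The Rpl13 stretch holds an unmarked C followed by a run of pyrimidines before its annotated start. Both genes shown were higher in both altered libraries.

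The 31 proteasome subunit genes showed the highest share of all lists, with 26 above all controls in both altered libraries (83.9%) and 0 below. Psmb2, a β subunit of the core particle, was at 43.7, 49.6 and 47.3 CPM in the controls and at 61.3 and 62.3 CPM in the altered libraries. The median log2 fold change of the class was 0.23, and the block fit called 19 of the 31 higher. Of 70 nuclear-encoded respiratory chain genes, 27 were above and 1 below, and the block fit called 53 higher. Ndufb4, a complex I subunit, was at 53.2, 53.8 and 56.1 CPM in the controls and at 69.3 and 76.1 CPM in Olig2-Cre and Fto Tg, and Uqcrc1 of complex III at 184 to 193 CPM against 239 and 235 CPM. As for the ribosomal genes, f/f 1 was high for this class (0.20), at the level of Olig2-Cre (0.17) and Fto Tg (0.24). The 15 mitochondrially encoded genes had 1 member above, 3 below and a median of -0.05. Of these, mt-Nd5 was at 3716, 3567 and 3797 CPM in the controls and at 2722 and 2620 CPM in the altered libraries.

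Gfap (chr11:102887336-102900912), the intermediate filament of astrocytes, was at 298, 358 and 333 CPM in the controls, 594 CPM in Olig2-Cre and 502 CPM in Fto Tg (log2 fold change 0.73 ± 0.11, adjusted p = 0.138 in edgeR). Agt, the precursor of angiotensin, which astrocytes express in brain, was at 28.0, 28.2 and 29.7 CPM against 50.0 and 38.8 CPM. Hsd11b1, which regenerates active glucocorticoid, was at 25.4, 27.5 and 23.2 CPM against 39.0 and 36.6 CPM. The other named genes were Bok, a member of the Bcl-2 family (0.73 ± 0.13), the calcium-binding Tesc (0.50 ± 0.09), the secreted peptide gene Enho (0.45 ± 0.08), the small GTPase Arf5 (0.46 ± 0.09) and the α-tubulin gene Tuba1b (0.51 ± 0.10). Reads of Tuba1b can be shared with near-identical tubulin genes. All 12 genes named on the higher side were chosen for lying above every control, in order of p, so that their position and their calls by DESeq2 and the block fit follow in part from the choice.

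Some glial and vascular marker lists also had more genes above than below the controls. Their median log2 fold changes were 0.13 (homeostatic astrocyte), 0.23 (microglia) and 0.27 (endothelial). The oligodendroglial lists, given further on, did not, with 1 progenitor gene above and 9 below, and 0 mature genes above and 2 below. The medians of the 3 lists above rested in part on single libraries. They were 0.08 (homeostatic astrocyte) and 0.14 (microglia) without f/f 1, and 0.12 (endothelial) without Olig2-Cre. Of 18 homeostatic astrocyte genes, 9 were above and 1 below all controls in both altered libraries. The 1 below was Slc1a2, the main glutamate transporter of astrocytes, at 3324, 3274 and 3161 CPM in the controls and at 2522 and 2439 CPM in Olig2-Cre and Fto Tg. Mlc1, an astrocyte end-foot protein, was at 129, 139 and 134 CPM against 164 and 173 CPM. The 18 reactive astrocyte genes were split, with 4 above (Gfap, Lcn2, Vim and Serpina3n) and 4 below (Cd44, S1pr3, Ggta1 and Timp1), and the list therefore did not follow Gfap. Vim was at 32.9, 40.1 and 44.7 CPM in the controls and at 50.0 and 54.4 CPM in the altered libraries. Microglial genes had 8 of 18 above and 1 below, with the complement gene C1qa at 30.4, 32.7 and 31.2 CPM in the controls and at 42.3 and 43.4 CPM in Olig2-Cre and Fto Tg. The homeostatic microglial receptor genes P2ry12 and Tmem119 were not beyond the range, and Cx3cr1 was the 1 gene below it. Endothelial genes had 7 of 16 above and 1 below, among them the adhesion molecule Pecam1 at 14.2 to 16.2 CPM against 19.3 and 19.1 CPM. The summed level of 7 blood genes was 7.63 CPM in Olig2-Cre and 19.5 CPM in Fto Tg, against 10.7 to 18.1 CPM in the controls, and their part in the vascular values was not tested. The hippocampal neuron list had 11 of 24 genes above and 3 below. Crym, a thyroid hormone binding protein, was at 175, 155 and 170 CPM in the controls and at 220 and 226 CPM in the altered libraries.

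**Figure D2:**
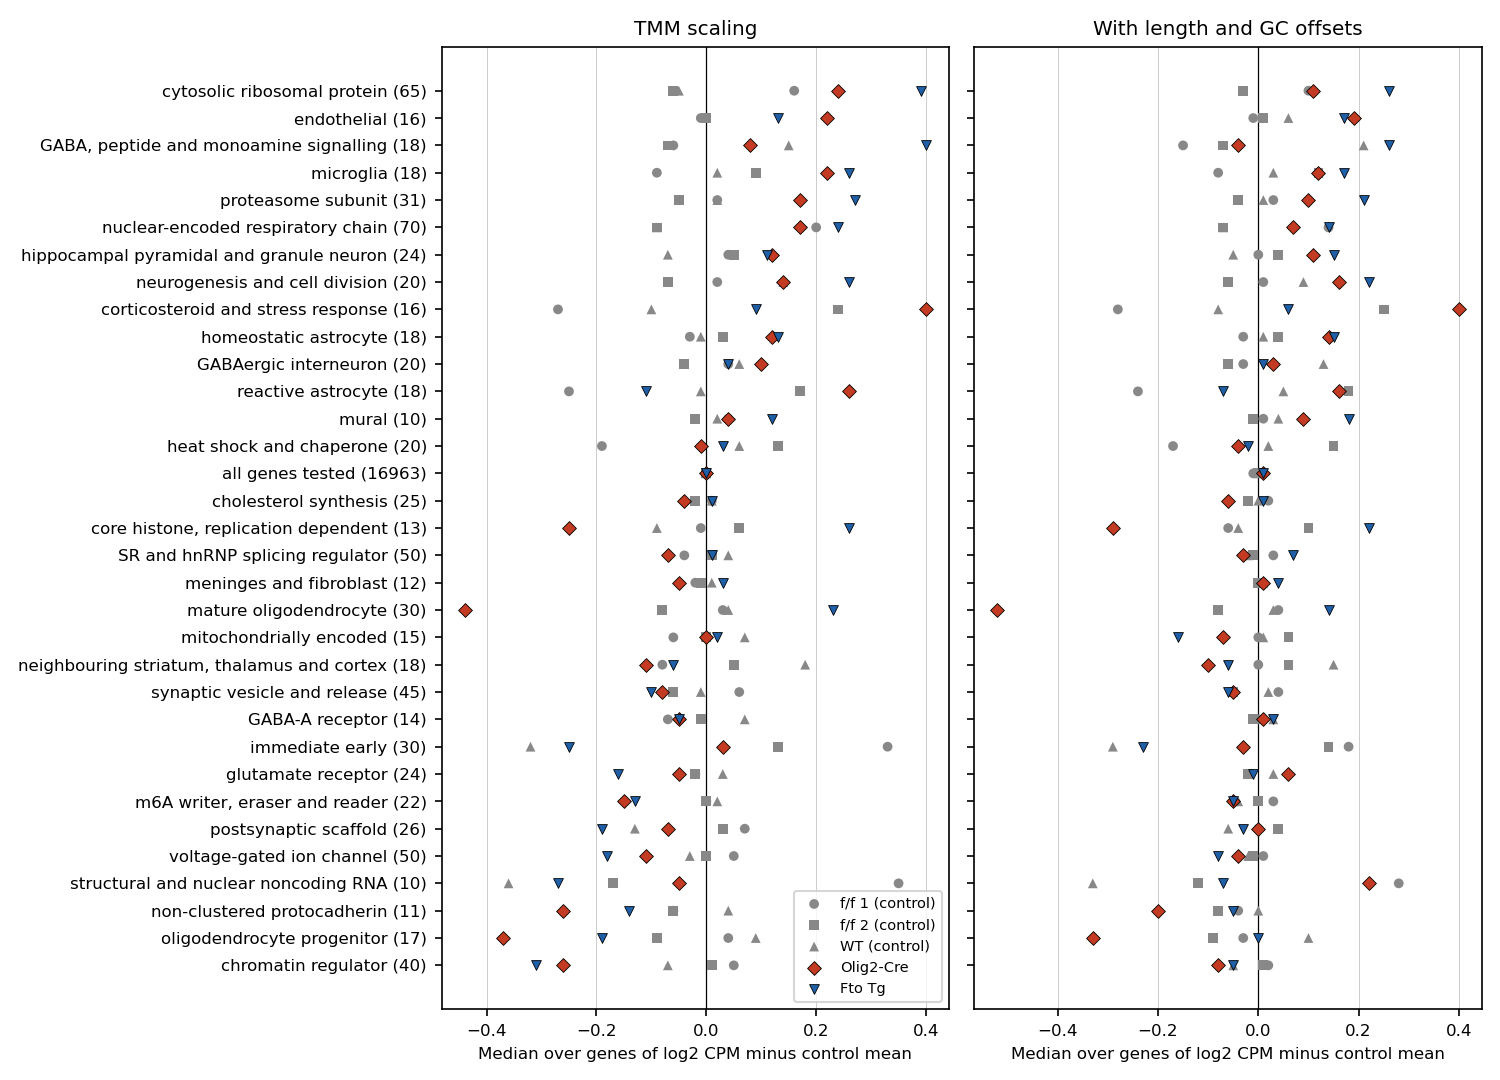
Median over the genes of each list of log2 CPM minus the mean of the 3 controls, per library, with TMM scaling (left) and after length and GC offsets (right). The number of genes tested is in parentheses, symbols mark the libraries, lists with fewer than 10 tested genes and the choroid plexus list are not drawn. Ribosomal protein genes lie at 0.24 in Olig2-Cre and 0.39 in Fto Tg on the left, and chromatin regulators at -0.26 and -0.31, whereas on the right the chromatin regulators lie at -0.08 and -0.05.

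Oligodendroglial genes separated into a part common to both altered libraries and a part in which they differed. Olig2 (chr16:91225457-91228677) was at 39.0, 36.8 and 43.1 CPM in the controls, 23.8 CPM in Olig2-Cre and 31.6 CPM in Fto Tg. Its Wilson 95% interval was 21.6 to 26.1 CPM in Olig2-Cre and 29.7 to 33.4 CPM in Fto Tg, both below the lowest bound of a control, 34.7 CPM. The log2 fold change was -0.51 ± 0.14, with an adjusted p of 0.191 in edgeR, 0.0327 in DESeq2 and 0.0171 in the block fit. In the Olig2-Cre library the level of Olig2 cannot be told apart from the effect of the driver on its own locus. As a control for the driver, the study used Olig2-Cre mice heterozygous for the floxed Prrc2a allele, which are not among these libraries. It reported significantly lower Olig2 expression in the Olig2-Cre mice that were flox/flox. Fto Tg mice carry no Cre. Olig1 (chr16:91269772-91271933), the related factor next to Olig2 at a distance of 41094 bases, was on the opposite side. It was at 138, 129 and 146 CPM in the controls, 186 CPM in Olig2-Cre and 262 CPM in Fto Tg. Its log2 fold change was 0.70 ± 0.14, with an adjusted p of 0.152 in edgeR, 0.000646 in DESeq2 and 0.0138 in the block fit.

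The Olig2 mRNA holds the sequence GGACU, a frequent context of m6A, at 2 places, both in its coding part. They are shown with 12 bases on either side, as DNA in capitals for the 5 bases, from the plus strand of GRCm38. The first overlaps the start codon, beginning at coding position 3, and the second begins at coding position 110.
Olig2 site 1 (chr16:91226390-91226418): ccctggggccatGGACTcggacgccagcc
Olig2 site 2 (chr16:91226497-91226525): gcttcacaggagGGACTgtgtcctcgtcc
This is 0.791 matches per kb of its transcript of 2530 bases, read on the mRNA strand only. The median of 15083 protein-coding genes was 1.04 per kb, and 10023 of them were at or above Olig2. Over all genes the frequency of GGACU had little relation to the comparison (Spearman's rho 0.05 across genes, which are not independent). A match is a stretch of letters and not in itself a measured m6A site, and no m6A was measured in these libraries. From separate m6A-seq data and a site prediction, the study reported a high-confidence m6A site in the Olig2 coding region, at the second match. It also reported m6A on Olig2 mRNA by m6A-RIP-qPCR. In cultured cells, an Olig2 coding sequence mutated at this site no longer responded to Prrc2a in its reporter activity or stability.

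Of the 17 progenitor genes tested, Olig1 was above the controls in both altered libraries and 9 were below (52.9%, against 17.8% of all genes). Tnr, an extracellular matrix glycoprotein, was at 69.4, 41.5 and 44.7 CPM in the controls and at 26.0 and 27.9 CPM in Olig2-Cre and Fto Tg. Pdgfra, the receptor for the growth factor that expands progenitors, was at 75.3, 69.7 and 89.9 CPM against 52.4 and 68.1 CPM, so that Fto Tg was only just below f/f 2. Vcan, Ptprz1, Sox6, Gpr17, Neu4 and Cspg4 made up the rest of the 9 together with Olig2. Their lineage partners Sox10 and Sox8 were not beyond the range. The block fit called 5 progenitor genes lower and 1 higher. The median deviation was -0.37 in Olig2-Cre and -0.19 in Fto Tg, against -0.09 to 0.09 in the controls, and Fto Tg was at the control level when length and GC offsets were applied (-0.33 and 0.00).

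Genes of mature oligodendrocytes lay on opposite sides of the controls in the altered libraries, and the median of their pooled log2 fold change was -0.04. Of 30 genes, 0 were above and 2 below the controls in both, and the block fit called 0 either way. Mbp, myelin basic protein, was at 3513, 3123 and 3363 CPM in the controls, 2583 CPM in Olig2-Cre and 4131 CPM in Fto Tg. The 2 genes below the controls in both were Myrf, the transcription factor that switches on myelin genes (70.5, 68.6 and 68.4 CPM against 44.2 and 65.2 CPM), and Ermn (67.5, 68.8 and 70.6 CPM against 42.8 and 67.5 CPM), and in both Fto Tg was close to the controls, for Ermn equal to f/f 1 at the precision given. Against the control of its own experiment, Olig2-Cre was lower in 29 of the 30 genes and Fto Tg higher in 26. With 1 library each, the difference between them was not tested.

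**Figure D3:**
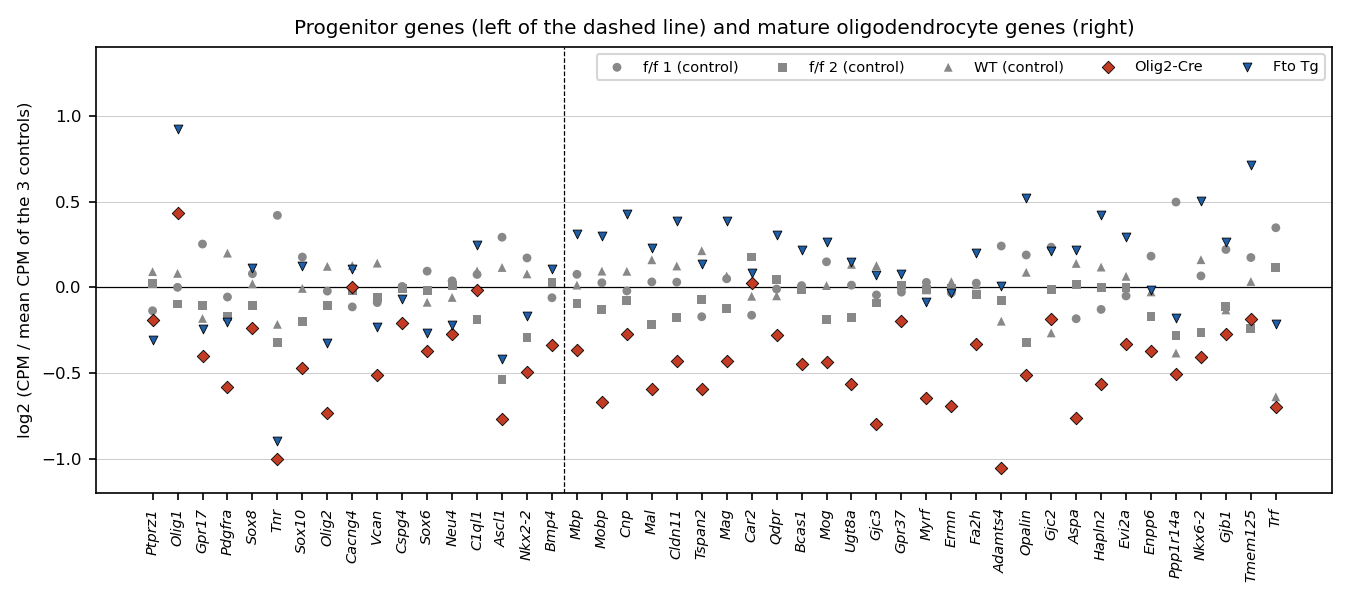
Level of 17 progenitor genes and 29 of the 30 mature oligodendrocyte genes in each library, as log2 of CPM over the mean CPM of the 3 controls. Grey symbols are the controls, red diamonds Olig2-Cre and blue triangles Fto Tg, and genes are ordered within each list by their control mean. Olig1 is the only progenitor gene with both altered libraries above the controls, and among mature genes such as Mbp (2583 CPM in Olig2-Cre, 4131 CPM in Fto Tg) the altered libraries lie on either side of the controls.

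Among 22 genes of the m6A pathway, 8 were below and 2 above all controls in both altered libraries. Fto, which the transgene adds to, was itself above all controls, and Prrc2a, the floxed gene, was below them. The positions of these genes are not independent of the genotypes. Prrc2c, a paralog of Prrc2a, was at 178, 138 and 137 CPM in the controls and at 90.6 and 76.9 CPM in Olig2-Cre and Fto Tg (log2 fold change -0.85 ± 0.14). Prrc2b, the other paralog, was at 560, 423 and 400 CPM against 347 and 326 CPM. The log2 fold change of Prrc2b was -0.46 ± 0.14, and that of Prrc2a itself was -0.20 ± 0.10 (adjusted p = 0.380 in edgeR). For Prrc2b and Prrc2c, f/f 1 was well above the other controls. Among the writers, Mettl14, Rbm15 and Virma were below the controls and Mettl3 was not beyond them (16.1, 14.8 and 12.7 CPM against 12.5 and 13.0 CPM). Alkbh5, the other eraser, was at 75.6, 76.8 and 69.3 CPM in the controls and at 68.5 and 66.5 CPM in the altered libraries. Of the readers, Ythdf2 was the only one above, at 46.4 and 46.5 CPM against a highest control of 46.0 CPM. The quasi-likelihood test without a block called none of the 22, and the block fit called 4 lower and 0 higher.

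Gene length moved with the comparison among the genes that passed the filter on low counts. Genes were divided into 10 bins of nearly equal number by the summed length of their exons. In the second bin (median 1766 bases), 30.2% of genes were above all controls in both altered libraries and 6.58% below, whereas in the bin of the longest genes (median 12100 bases) 3.47% were above and 50.0% below. The median log2 fold change was 0.14 in the second bin and -0.20 in the bin of the longest genes, and the difference of the longest from the shortest bin was -0.27. This difference had an SD of 0.11 over the 3 controls. It was -0.13 without Olig2-Cre and turned to 0.12 without the filter on low counts, where the bins hold other genes. Spearman's rho between exon length and log2 fold change was -0.32 over 16710 genes and -0.42 over the 15083 protein-coding ones. Each altered library showed the trend against the control of its own experiment, with a rho of -0.29 in Olig2-Cre and -0.35 in Fto Tg. By GC content, the median went from -0.08 in the lowest bin to 0.06 in the highest, a difference of 0.14 that was smaller than its SD over the 3 controls (0.24).

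**Figure D4:**
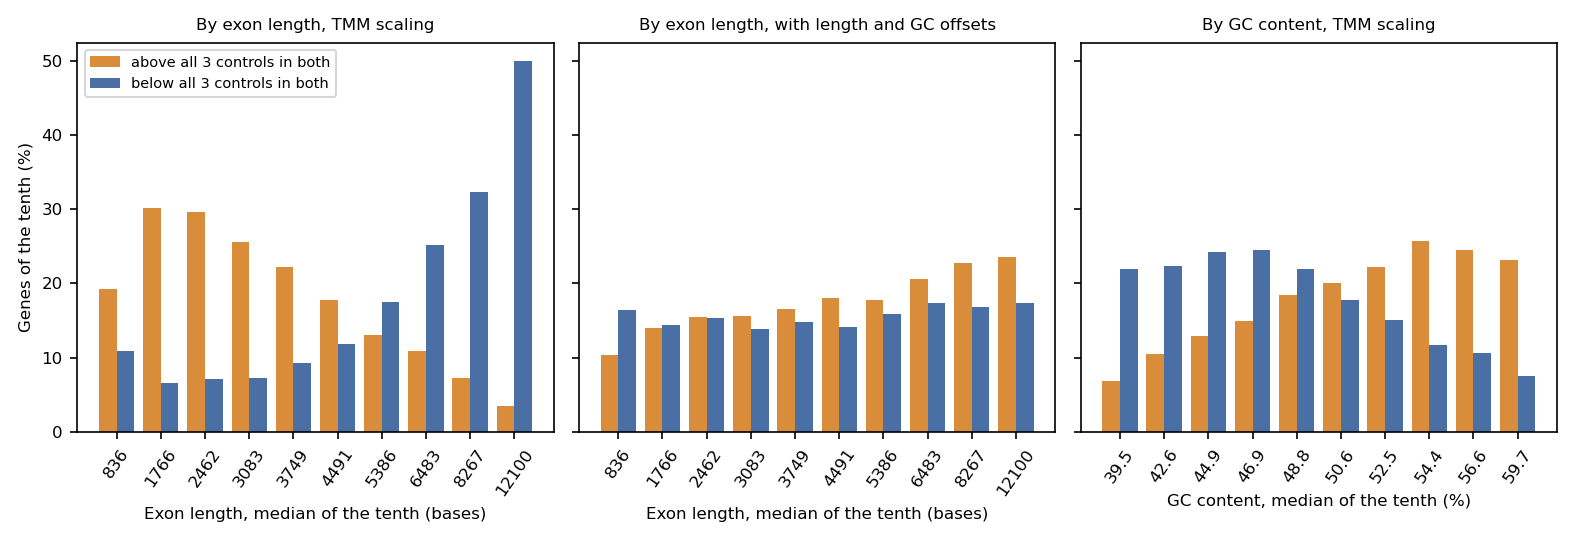
Share of genes above (orange) or below (blue) all 3 controls in both altered libraries, in 10 bins of the tested genes by exon length with TMM scaling (left) and after offsets for length and GC content (middle), and by GC content (right). The share below rises to 50.0% in the bin of the longest genes on the left and is 17.3% there after the offsets.

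To see which genes and classes stayed beyond the controls at a given length and GC content, each library was corrected by offsets from its own smooth trend. The number beyond the range was then 2956 higher (17.4%) and 2666 lower (15.7%), and 1995 and 1961 of the genes counted before remained on their side. The quasi-likelihood test again called 0 genes in each direction. Of the 35 lists, 13 had both altered medians beyond all 3 controls before the correction, 6 above and 7 below. How many lists would meet this with no difference between the arms was not tested. All 6 above (ribosomal, proteasome, homeostatic astrocyte, microglia, endothelial and hippocampal neuron genes) remained so, but of the 7 below only the ion channels and the m6A pathway did, with medians at or above -0.08. In some lists the margin was small, since Olig2-Cre was at 0.11 and f/f 1 at 0.10 for ribosomal genes, and Olig2-Cre and f/f 2 were both at 0.12 for microglial genes, of which 4 were then above and 2 below. For the m6A pathway both altered medians were at -0.05 and WT at -0.04, and 5 genes were then below and 4 above. Lists beyond the controls only after the correction were mural, neurogenesis and sex-linked genes above and mitochondrially encoded genes and genes of neighbouring regions below, which made 9 above and 4 below. For sex-linked genes Olig2-Cre and WT were both at 0.03. The median over all genes tested was then also above, at 0.01 in both altered libraries against -0.01 to 0.00 in the controls. For chromatin regulators, 9 of 40 genes were below and 1 above after the correction, and their median was -0.08. For ribosomal protein genes, 27 of 65 were above and 0 below, with a median of 0.19. For proteasome genes 17 of 31 were above and 0 below (median 0.15). For respiratory chain genes 23 of 70 were above and 1 below (median 0.10). Within their own length bin, 56 of 65 ribosomal, 29 of 31 proteasome and 57 of 70 respiratory chain genes had a log2 fold change above the median of the bin, and 29 of 40 chromatin regulators had one below it. Of the 11 named genes on the lower side, all remained below the controls, with Lmbrd2 at -0.94, Klhl11 at -0.99 and Gabrb2 at -1.09, and of the 12 on the higher side all but Rplp1 remained above.

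The altered libraries were also compared with the control of their own experiment, since these pairs share no library. Over 11908 genes with a mean of at least 5 CPM in the higher arm, Pearson's r across genes between the difference in Olig2-Cre and that in Fto Tg was 0.51, and 0.35 after the offsets. The pairs have length and GC trends in common, and genes are not independent replicates. A difference of at least 0.5 on the log2 scale was seen on the same side in both pairs for 46 higher and 160 lower genes, and on opposite sides for 10 and 3 genes. After the offsets these numbers were 19 higher and 87 lower, and 12 and 3 on opposite sides. Gfap (0.73 in Olig2-Cre and 0.59 in Fto Tg), Gabrb2 (-0.90 and -1.15) and Prrc2c (-0.61 and -0.83) were among the genes with a difference of this size in both pairs, as was Olig1 (0.53 and 0.84), and Olig2 came close (-0.63 and -0.45).

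**Figure D5:**
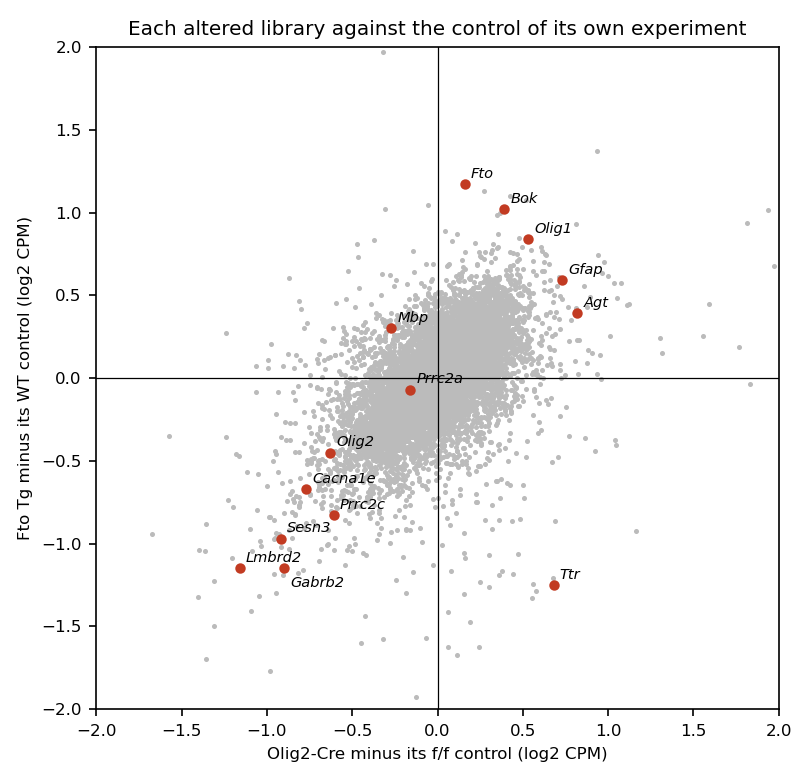
Difference in log2 CPM of Olig2-Cre from its f/f control (x axis) and of Fto Tg from its WT control (y axis), 1 point per gene, for 11908 genes of which 8 lie outside the plotted range of -2 to 2. Red points are named genes. Gfap, Bok and Olig1 lie in the upper right, Lmbrd2 and Gabrb2 in the lower left, and the choroid plexus gene Ttr in the lower right.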

How the data were processed

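RNA-seq libraries of mouse hippocampus were grouped by the genotype label of each sample. The authors deposited whole-number read counts per Ensembl gene without normalization. Per the study's methods, adaptors were trimmed, short reads and reads with ambiguous bases were discarded, the rest were aligned to mm10 with TopHat, uniquely mapped reads were kept, and HTSeq counted them without strand, so that overlapping and antisense genes cannot be separated. The submitters' processing notes name TopHat2 2.0.9 and HTSeq 0.6. The study's methods name paired reads, the labels single or paired.

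Counts of 37315 identifiers were matched to GENCODE M21 (GRCm38), which gave a symbol to 95.2%. The 2 altered and 3 control libraries were fitted in edgeR 4.0.16 (R 4.3.3) with filterByExpr, TMM scaling and the quasi-likelihood test, Benjamini-Hochberg adjusted over all genes, at an FDR of 0.05, and the fit was tested on simulated data. Levels are TMM-scaled CPM unless library totals are named, and log2 CPM used a prior count of 2. Length is the union of exons, and GC content that of the longest transcript. Both were known for 98.5% of tested genes. The offsets were smooth trends per library on both (mgcv 1.9.3). Alternatives were DESeq2 1.42.0, its size factors, library totals alone, no filter on low counts, the experiment as a block, the offsets, and leaving out each library. Residuals of altered and control libraries of the same experiment correlated at 0.23 (Olig2-Cre) and 0.30 (Fto). With 2 altered libraries the crossed pairs have the opposite sign by construction. The pairs follow from the genotypes and titles in the labels, and no shared day or litter was given, so that the block is an alternative only.

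Named genes were Prrc2a, Fto and Olig2, then up to 12 per direction that were called, beyond the control range and at 5 CPM or more, filled up with uncalled genes in order of p, and up to 4 per list by p. Since no gene was called, all are in order of p. Other members are named to complete a count or because the study concerns them and were chosen with their values seen. The members and the 35 lists were chosen with earlier results of these data known. The Nestin-Cre library entered no fit. Values of some members are not reported here, though the counts include them.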

Additional observations from a re-analysis of the deposited data

Results flagged for a closer look

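In 5 gene lists the median of 1 altered library was above all 3 controls and that of the other below them. With 1 library per genotype these differences were not tested. Mature oligodendrocyte genes were at -0.44 in Olig2-Cre and 0.23 in Fto Tg (median log2 CPM minus the control mean), with controls between -0.08 and 0.04. Choroid plexus and ependymal genes were at 0.58 in Olig2-Cre and -1.45 in Fto Tg, with controls from -0.32 to 0.20, and their abundant member Ttr, a thyroid hormone carrier, was at 3210 and 643 CPM against 1527 to 2715 CPM. Replication-dependent histone genes were at -0.25 and 0.26, with controls from -0.09 to 0.06. Blood genes were at -0.80 and 0.54 over 5 tested genes of a few CPM each. Meningeal and fibroblast genes were at -0.05 and 0.03, with controls from -0.02 to 0.01, which is a far smaller difference than in the other lists.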

How the results depend on the processing

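The count of called genes depended on the design, the filter and the test. Without a filter on low counts 137 genes were called higher and 383 lower, with DESeq2 198 and 411, and with the experiment as a replicate block 812 and 1015, against 0 and 0 with the quasi-likelihood test on filtered genes without a block, also with DESeq2 size factors, library totals or offsets. The cause was not tested. The block leaves 1 residual degree of freedom. The biological coefficient of variation, edgeR's common estimate of the spread between libraries, was 0.139 without the block and 0.0661 with it. Leaving out single libraries gave 0 to 4 higher (4 without Olig2-Cre) and 0 to 4 lower (4 without f/f 1). Counts beyond the control range were 3860 to 5246 higher and 3810 to 5176 lower when 1 library was left out, as follows from comparing fewer libraries. The number of list members called was 0, and 93 with DESeq2, 260 with the replicate block, and 0 to 1 when a library was left out (1 without Olig2-Cre). Counts of list members by DESeq2 and the block, and the offsets for the length and GC trends, were chosen after seeing the data. The difference of the longest from the shortest length bin was -0.34 to -0.13 when 1 library was left out (-0.13 without Olig2-Cre), 0.12 without the filter and 0.05 with the offsets, which are built to remove it. The GC difference was 0.03 to 0.26 when 1 library was left out, and nearest 0 without WT. Of 297 values of named genes under the alternatives, none changed sign. All of these genes lay beyond every control in both altered libraries, and most were chosen for it. The unchanged signs follow largely from this position and say little about robustness. In fits that kept both altered libraries, 25 of these genes passed the FDR threshold with DESeq2, 25 with the block, 26 without the filter on low counts and 1 without f/f 1. Without Olig2-Cre, where Fto Tg is the only altered library, the log2 fold change of Fto was 1.22, against 0.77 with it. Of 245 list medians, 61 moved by more than the SD of the controls.

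Depth limits genes of a few CPM, and the design limits more, since each altered genotype has 1 library and the controls come from 3 experiments and both Prrc2a f/f and WT mice.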

Other observations

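Genes of neuropeptides and monoamines had 6 of 18 members above and 0 below all controls in both altered libraries, with prodynorphin (Pdyn) at 7.60, 8.97 and 6.66 CPM in the controls and at 11.5 and 12.2 CPM in Olig2-Cre and Fto Tg. Genes of neurogenesis and cell division had 7 of 20 above and 2 below. Igfbpl1, a marker of newborn neurons, was at 5.39, 3.88 and 5.43 CPM in the controls and at 7.69 and 8.88 CPM in the altered libraries. Hopx, a marker of quiescent neural stem cells and of astrocytes, was at 24.3, 52.7 and 45.9 CPM against 73.4 and 70.8 CPM. Corticosteroid and stress genes had 4 of 16 above and 0 below, among them Tsc22d3, a glucocorticoid target, at 80.1, 121 and 97.2 CPM against 148 and 124 CPM. Immediate early genes had 0 of 30 above and 2 below. Egr3 and Npas4 were those below. Npas4, an activity-induced transcription factor, was at 37.2, 18.2 and 18.1 CPM in the controls and at 5.65 and 9.40 CPM in the altered libraries, whereas Arc was at 243, 171 and 75.6 CPM against 81.8 and 79.6 CPM and so within the wide control range.

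The other lists were near the background or split. Those above and below numbered 4 and 10 of 50 for splicing regulators, 6 and 7 of 25 for cholesterol synthesis, 2 and 2 of 20 for chaperones, 4 and 4 of 20 for interneuron genes, 3 and 1 of 10 for mural cells, 1 and 4 of 18 for genes of striatum, thalamus and cortex, 0 and 1 of 10 for structural noncoding RNAs, and 0 and 1 of 5 for sex-linked genes. Among the splicing regulators, Srrm2, a scaffold of nuclear speckles, was at 736, 584 and 543 CPM in the controls and at 456 and 430 CPM in the altered libraries.

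Some transcripts stood out in 1 altered library only. The 7SK RNA gene Rn7sk was at 202 CPM in Olig2-Cre and at 16.9 to 39.4 CPM in the other 4 libraries, and the noncoding RNA Gm24447 had 3657 counts in Olig2-Cre and 0 to 32 in the others. Eno1b, a near-identical copy of Eno1 whose reads can be shared with it, was at 33.4 CPM in Fto Tg and at 0.0689 to 0.43 CPM elsewhere. The Nestin-Cre library entered no comparison and had 26.2% mitochondrial counts. Of 9 genes looked up in it (CPM by library totals, chosen after the other results were seen), 5 were on the same side of the controls as in Olig2-Cre and Fto Tg and 4 on the opposite side. On the same side were Prrc2a (184 CPM), Olig2 (15.5 CPM), Gabrb2 (81.3 CPM) and Lmbrd2 (21.9 CPM) below and Gfap (566 CPM) above. Over nonmitochondrial counts, the side of Gabrb2 was lost, at 110 CPM within a control range of 94.3 to 129 CPM, and the other 8 genes kept theirs. On the opposite side were Prrc2c (457 CPM) and Cacna1e (359 CPM) above and Olig1 (16.5 CPM) and Rpl13 (32.7 CPM) below.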
